A study of Mus musculus with 9 samples.

Results

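The 10 genes described here belong to the calcium cycle of the sarcoplasmic reticulum and were followed through culture of mouse stem cell derived cardiomyocytes. The set was given as a list of symbols for calcium storage (Casq1, Casq2), release (Ryr2, Trdn, Asph, Jph2) and uptake with its regulators (Atp2a2, Pln, Sln, S100a1). Every probe set annotated to 1 of these symbols was taken. That gave 31 probe sets of 10 genes, of 45037 probe sets and 18193 genes measured, and 8 of the 10 genes had more than 1 probe set. The cells were the synp line, made from R1 embryonic stem cells of a 129X1 x 129S1 background, in which the Ncx1 promoter drives a puromycin resistance gene. The cytokines VEGF, bFGF, FGF10, BMP4 and Activin A drove differentiation in all groups, and every group received puromycin from day 7, a selection meant to remove cells in which this promoter is not active. No unselected group was compared. RNA was collected at day 10, day 20 or day 30, with 3 arrays at each age. The question was how far such cells mature in culture. Nothing in the labels ties a replicate number to a culture of its own, so the p-values cover the scatter among these arrays alone, part of which may be technical. All samples came from the same line.

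In heart muscle, calcium is stored in the sarcoplasmic reticulum by calsequestrin and leaves it through the ryanodine receptor when the membrane is depolarised. Triadin and junctin anchor calsequestrin to the receptor, and junctophilin holds the reticulum against the plasma membrane. A calcium pump then returns the ion to the store, and the small membrane proteins phospholamban and sarcolipin hold that pump back. These genes are commonly used to judge how mature a cardiomyocyte is, because store and release machinery are less developed in embryonic heart cells.

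Each value is a deposited log2 signal. A gene's call is that of its brightest probe set, the one with the highest mean over the 9 arrays. Differences were tested with limma over all probe sets, and rose or fell means an adjusted p under 0.05. The median of all probe sets was 5.54, which serves as a mark for dim signal, since background was not measured probe by probe. The arrays were limited in number, and those of day 10 varied most. The SD of a probe set within an age had a median of 0.177 among day 10 arrays, 0.132 among day 20 arrays and 0.14 among day 30 arrays. Day 10 replicate 3 stood apart from the other day 10 arrays in cell cycle genes. Its median deviation over 5 cell cycle genes was -0.28, against 1.44 and 1.90 in replicates 1 and 2. The same array was higher over 8 endothelial markers (1.27, against -0.31 and 0.36) and 11 cardiomyocyte markers (0.29, against -0.32 and -0.12). The mean over 24 probe sets of added poly-A control RNA was 5.24 and 5.09 in day 10 replicates 2 and 3, against 5.91 to 6.69 on the other arrays. Probe sets for 18S ribosomal RNA averaged 10.27 in day 30 replicate 2, against 12.07 to 13.44 elsewhere, with day 10 replicate 3 the highest. Results that rest on these arrays are given with and without them.

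Between day 10 and day 30, 6 of the 10 genes rose (Casq2, Sln, Pln, Trdn, S100a1 and Atp2a2), Jph2 fell, and Casq1, Ryr2 and Asph did not pass. Among all genes 10.3% rose and 8.91% fell. The median difference of the 10 genes was 1.43, against -0.03 for all genes. In the same 7 genes the 3 arrays of day 30 did not overlap those of day 10 (6 higher and 1 lower), and this was so for 17.4% of all genes upward and 18.8% downward. The genes were listed with earlier results of these data known, so these counts describe the list and are no independent test of it. The count of changed genes fell from 7 to 6 without day 10 replicate 3 and to 5 without day 30 replicate 2. In these settings 20.3% and 9.85% of all probe sets were called, where with all arrays 7.4% rose and 7.73% fell. Over all 9 left-out arrays the count of changed genes ran from 5 to 7, and arrays not singled out above also lowered it. In bulk RNA, fewer cells of a type and less RNA per cell cannot be told apart.

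**Figure D1:**
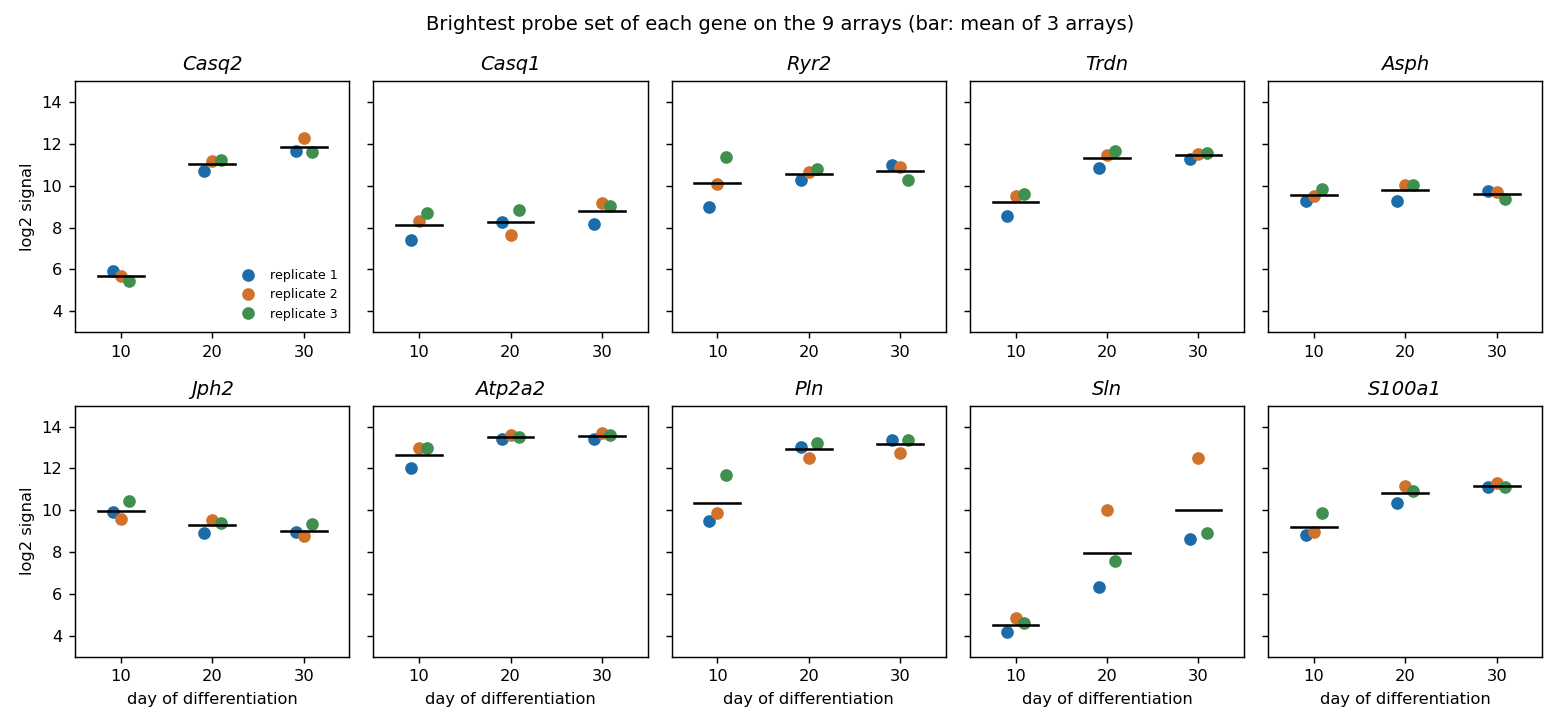
Log2 signal (vertical axis) of the brightest probe set of each of the 10 genes against day of differentiation (horizontal axis), with 1 point per array, coloured by replicate, and a bar at the mean of 3 arrays. Casq2 moved from a mean of 5.69 at day 10 to 11.86 at day 30, while Sln was spread from 8.61 to 12.50 among the day 30 arrays.

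The highest rise of the 10 genes was that of a storage gene. Casq2 encodes the cardiac calsequestrin, the main calcium-binding protein of the store. Its signal was 5.93, 5.69 and 5.46 in replicates 1 to 3 of day 10, then 10.72, 11.19 and 11.23 at day 20, and 11.64, 12.30 and 11.62 at day 30. All day 10 arrays therefore lay near the median of all probe sets, and all later arrays lay far above it, with no overlap between any pair of ages. The difference between day 30 and day 10 was 6.16 (SE 0.23, 95% interval 5.64 to 6.68, adjusted p = 1.8e-05). The day 10 signal was not shown to be above background, so no fold is given. Leaving out any array kept it between 5.94 and 6.28. Casq1, the calsequestrin best known from skeletal muscle, did not follow. It read 7.41, 8.31 and 8.70 at day 10, 8.24, 7.65 and 8.85 at day 20, and 8.16, 9.16 and 9.01 at day 30, and its ages overlapped. Its difference of 0.63 did not pass (interval -0.35 to 1.61, adjusted p = 0.38).

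The start region of Casq2 is shown because no other member changed as much. It is RefSeq sequence of GRCm38.p6, chr3:102086165-102086464, plus strand, running from 250 bases before the annotated start to 50 after it, with capitals at the match to the MEF2 site.
Casq2: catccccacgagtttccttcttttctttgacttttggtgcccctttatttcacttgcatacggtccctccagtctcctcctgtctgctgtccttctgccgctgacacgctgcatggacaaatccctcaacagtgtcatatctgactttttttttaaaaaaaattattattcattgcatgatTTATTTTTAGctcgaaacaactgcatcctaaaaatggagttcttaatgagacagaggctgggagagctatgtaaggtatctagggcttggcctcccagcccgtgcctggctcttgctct
The windows were searched on both strands for the MEF2 site and the CArG box, which are bound by heart muscle transcription factors. They were also searched for a GATA factor motif, AGATAA, and for CAGCTG alone among the forms of the E-box. None of these overlapped another in the windows of the members. The MEF2 match of Casq2 starts at base -69, and such a match is held by 3.19% of the 32851 promoter windows of the table. RefSeq windows were used for 6 of the 10 genes, and none for Sln, Atp2a2, Trdn and Asph. Those of Ryr2 and S100a1 held none of the 4 motifs, and the CArG box, held by 1.63% of all windows, was in none of the 6.

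Genes of the release complex went different ways. Ryr2, the calcium release channel itself, read 8.98, 10.06 and 11.39 at day 10, 10.27, 10.63 and 10.78 at day 20, and 11.01, 10.91 and 10.25 at day 30. The day 10 arrays spanned the range of both later ages, and the difference of 0.58 between day 30 and day 10 did not pass (interval -0.64 to 1.80, adjusted p = 0.53). It was 0.00 without day 10 replicate 1 and 1.2 (adjusted p = 0.051) without day 10 replicate 3, so its size depended on single arrays. The second Ryr2 probe set, dim at a mean of 5.49, differed by 0.34.

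Trdn, which encodes triadin, rose on all 6 of its probe sets. The brightest read 8.54, 9.52 and 9.58 at day 10, 10.84, 11.46 and 11.66 at day 20, and 11.28, 11.50 and 11.56 at day 30. No day 10 array reached a later one. The difference between day 30 and day 10 was 2.23 (SE 0.30, interval 1.53 to 2.93, adjusted p = 0.003), a 4.7-fold change, and it passed without any 1 of the 9 arrays (1.90 to 2.42). The other 5 probe sets ran from 2.12 to 3.94. Both highest, 1426143_at at 3.94 and 1426144_x_at at 3.43, rose more than the brightest within the same arrays, by 1.71 and 1.2 (exact two-sided permutation p = 0.00714 each, adjusted p = 0.048 over 18 probe set pairs). Triadin is made in several splice forms. Which forms each probe set reads was not determined.

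Asph encodes junctin, and from other transcripts of the same gene junctate and an aspartyl hydroxylase. Its 6 probe sets did not move together. The brightest, 1426015_s_at, read 9.26, 9.51 and 9.84 at day 10 and 9.76, 9.71 and 9.37 at day 30, which overlap, with a difference of 0.08 (interval -0.48 to 0.63, adjusted p = 0.88). The next, 1420959_at, nearly as bright, read 8.88, 8.92 and 9.19 at day 10, 9.73, 9.91 and 9.58 at day 20, and 10.28, 10.00 and 9.87 at day 30. It rose without overlap by 1.06 (SE 0.14, interval 0.73 to 1.38, adjusted p = 0.0029). Another 2 rose, 1450058_at by 1.32 (adjusted p = 0.015) and 1425275_at by 1.46 (adjusted p = 0.019), and 1425274_at (0.87, adjusted p = 0.22) and the dim 1436455_at (-0.05) did not pass. Relative to the brightest, 1425275_at gained 1.39 within arrays (exact permutation adjusted p = 0.048), while 1420959_at and 1450058_at gained 0.98 and 1.24 (adjusted p = 0.083 for both). The gene's call above is that of its brightest probe set alone. With the mean of its 6 probe sets the gene differed by 0.79 and passed (adjusted p = 0.026).

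Jph2, the cardiac junctophilin, was the one member that fell. It read 9.93, 9.60 and 10.43 at day 10, 8.92, 9.53 and 9.41 at day 20, and 8.94, 8.75 and 9.33 at day 30. Every later array was below every day 10 array. The difference between day 30 and day 10 was -0.98 (SE 0.25, interval -1.56 to -0.40, adjusted p = 0.036), which is 0.507 of the day 10 signal, and the dimmer probe set 1421453_at differed by -0.97 (adjusted p = 0.091). The call was narrow: it was lost without day 10 replicate 1 (-1.01, adjusted p = 0.076), day 10 replicate 3 (-0.76, 0.06), day 20 replicate 3 (-0.98, 0.059), day 30 replicate 1 (-0.94, 0.10) or day 30 replicate 2 (-0.85, 0.11).

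On the side of uptake, the pump gene rose, as did Pln, Sln and S100a1 among its regulators. Atp2a2 encodes SERCA2, the calcium pump of the cardiac reticulum, and was among the brightest members. It read 12, 12.98 and 12.98 at day 10, 13.39, 13.62 and 13.50 at day 20, and 13.43, 13.69 and 13.60 at day 30. The day 10 arrays were lower without overlap, and replicate 1 was the lowest of them. The difference between day 30 and day 10 was 0.92 (SE 0.25, interval 0.34 to 1.49, adjusted p = 0.043), or 1.89-fold. It was 0.59 without day 10 replicate 1 (adjusted p = 0.019), and the call was lost without day 20 replicate 1, 2 or 3 (adjusted p = 0.065, 0.065 and 0.071) or day 30 replicate 1, 2 or 3 (0.082, 0.12 and 0.11).

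The other 5 Atp2a2 probe sets did not pass, and they differed in sign. Of these, 4 lay above 0, from 0.40 to 1.13. The remaining one, the bright 1427250_at, read 11.92, 12.10 and 11.44 at day 10, 11.40, 11.57 and 11.09 at day 20, and 10.98, 11.37 and 11.22 at day 30, a difference of -0.63 (interval -1.08 to -0.17, adjusted p = 0.07). Within arrays it lost 1.55 against the brightest probe set between day 10 and day 30 (exact permutation p = 0.0107, adjusted p = 0.048). The gene yields a cardiac and a more widely used pump form that differ at their 3 prime ends. It was not determined which form each probe set reads.

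Pln encodes phospholamban, which inhibits the pump until it is phosphorylated. It read 9.50, 9.88 and 11.69 at day 10, 13.02, 12.49 and 13.24 at day 20, and 13.37, 12.76 and 13.36 at day 30. Day 10 replicate 3 was the highest of its age and still below every later array. The difference between day 30 and day 10 was 2.80 (SE 0.52, interval 1.61 to 4, adjusted p = 0.01), and 3.47 (adjusted p = 0.0005) without day 10 replicate 3. The call held without any 1 array, and all 3 Pln probe sets rose, by 2.80 to 3.32. The Pln window is shown beside that of Casq2, because all probe sets of the gene rose and the rise held without any 1 array. The same was true of S100a1, whose window held none of the 4 motifs and is not printed. The Pln window is RefSeq sequence of GRCm38.p6, chr10:53337436-53337735, plus strand, with capitals at 2 matches.
Pln: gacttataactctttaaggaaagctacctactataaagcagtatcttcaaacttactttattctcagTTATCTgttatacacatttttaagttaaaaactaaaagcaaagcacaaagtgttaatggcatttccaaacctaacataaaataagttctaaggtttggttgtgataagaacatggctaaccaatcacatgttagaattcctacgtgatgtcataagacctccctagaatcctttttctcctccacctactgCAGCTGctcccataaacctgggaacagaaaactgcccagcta
The GATA factor motif searched was AGATAA, matched on the other strand from base -183 to -178. The E-box searched was CAGCTG, matched at bases 9 to 14 after the start. The first was held by 11.2% and the second by 16.3% of all windows, so both are common. Windows of Casq1, which did not pass, and Jph2, which fell, also held an E-box.

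Sln encodes sarcolipin, a pump inhibitor of atrial and skeletal muscle. Its brightest probe set read 4.17, 4.85 and 4.60 at day 10, all below the median of all probe sets. At day 20 it read 6.34, 10.02 and 7.57, and at day 30 it read 8.61, 12.50 and 8.92. No age overlapped day 10, but the spread within day 20 and within day 30 was wide, and replicate 2 was the highest at each age. The difference between day 30 and day 10 was 5.47 (SE 1.16, interval 2.79 to 8.15, adjusted p = 0.017). With a dim day 10 signal, not shown to be above background, no fold is given. It was 4.23 (adjusted p = 0.032) without day 30 replicate 2, and 5.28 (adjusted p = 0.051) without day 10 replicate 1. The second Sln probe set, 1420883_at, was dim on nearly every array, with 5.55 in day 30 replicate 2 against 3.96 to 4.52 elsewhere, and did not pass (0.53, adjusted p = 0.40). S100a1 encodes a calcium-binding protein known to act on both the pump and the release channel. It read 8.84, 8.95 and 9.88 at day 10, 10.33, 11.18 and 10.93 at day 20, and 11.12, 11.30 and 11.09 at day 30, with no overlap between day 10 and the later ages. Its rise was 1.95 (SE 0.30, interval 1.26 to 2.64, adjusted p = 0.0048), the second probe set gave 1.95 as well, and the call held without any 1 array (1.76 to 2.27).

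**Figure D2:**
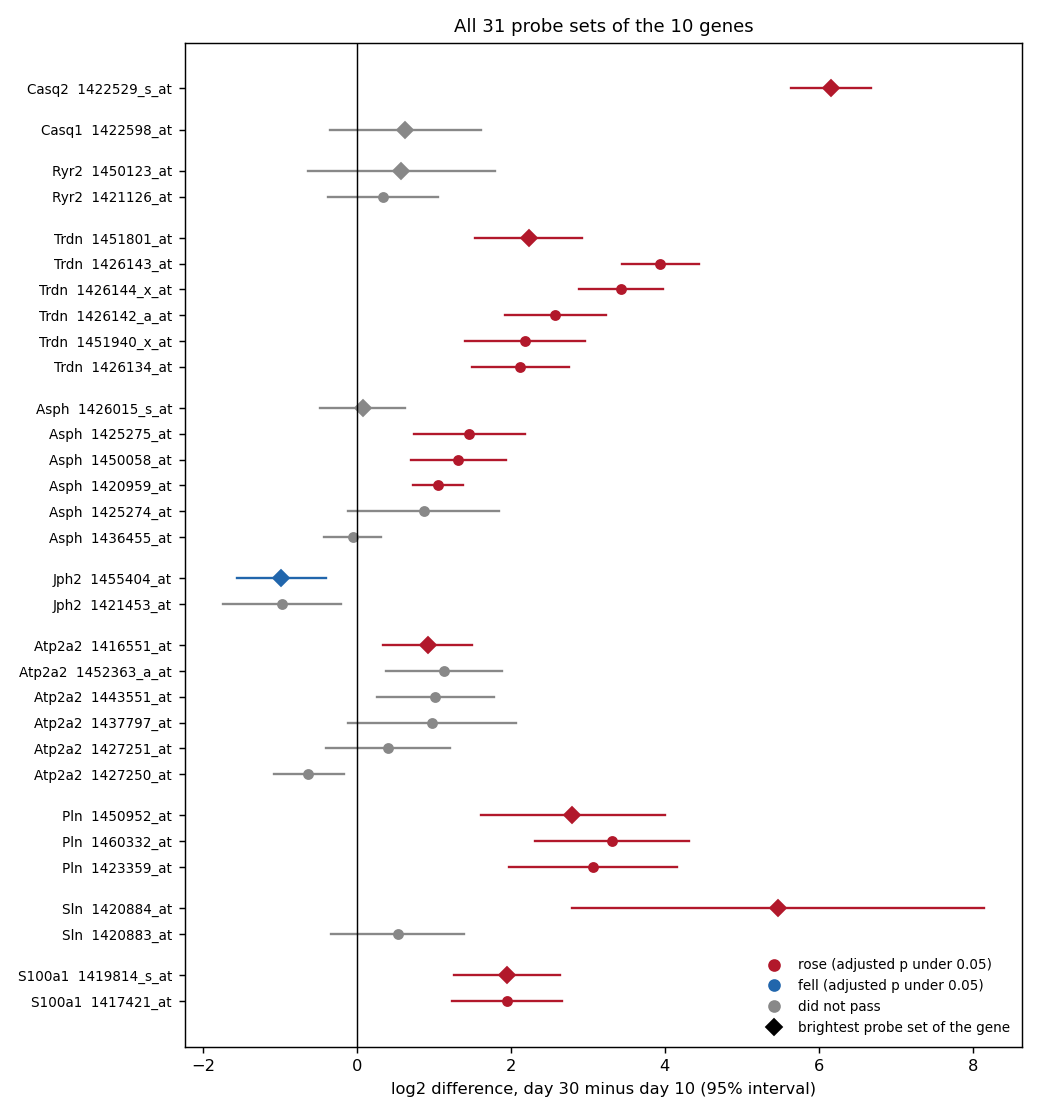
Log2 difference between day 30 and day 10 (horizontal axis) with its 95% interval for all 31 probe sets, grouped by gene, where diamonds mark the brightest probe set and colours mark calls at an adjusted p under 0.05. Of the 31, 17 rose, 1 fell and 13 did not pass. Trdn and Pln lie wholly to the right of 0, while Atp2a2 and Asph hold probe sets on both sides.

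Counted by probe set, 17 of 31 rose and 1 fell, where 7.4% of all probe sets rose and 7.73% fell. The probe sets of a gene share its transcripts and are not independent. Agreement within a gene was full for Trdn (6 of 6 rose), Pln (3 of 3) and S100a1 (2 of 2). It was partial for Asph (3 of 6), Atp2a2 (1 of 6), Sln (1 of 2) and Jph2 (1 of 2 fell). From day 10 to day 20, 15 probe sets rose and none fell, against 4.51% each way among all probe sets. From day 20 to day 30 none of the 31 passed in limma, where 0.135% of all did. An unadjusted limma p under 0.05 was held by 3 of the 31, and by 2004 of 18193 genes at their brightest probe sets. Between the intervals 2 of 31 passed, the Casq2 probe set and 1426143_at of Trdn (-2.84, adjusted p = 0.045), where 0.133% of all did. Of 18 pairs of a bright probe set with its gene's brightest, 4 changed against each other at an adjusted p of 0.048. That count stayed at 4 without day 10 replicate 3, was 2 without day 30 replicate 3 and was 0 without any 1 of the other 7 arrays.

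The 2 intervals were then taken apart. From day 10 to day 20, 4 of the 10 genes rose and none fell (all genes: 6.31% rose, 5.3% fell). These were Casq2 at 5.35 (interval 4.83 to 5.87, adjusted p = 0.00013), Pln at 2.56 (1.36 to 3.76, 0.023), Trdn at 2.11 (1.41 to 2.81, 0.0071) and S100a1 at 1.59 (0.90 to 2.28, 0.018). Sln at 3.44 (0.76 to 6.11, adjusted p = 0.11), Atp2a2 at 0.85 (0.28 to 1.42, 0.073) and Jph2 at -0.70 (-1.28 to -0.12, 0.13) did not pass, although their day 20 arrays did not overlap those of day 10. Arrays of the 2 ages were apart in 7 genes, 6 higher and 1 lower, as in 14.5% and 17.3% of all genes. Casq2 and Trdn kept their calls without any 1 array. Pln lost its call without day 10 replicate 1 (2.13, adjusted p = 0.059) or 2 (2.32, 0.076), or day 20 replicate 1 (2.51, 0.068), 2 (2.77, 0.058) or 3 (2.40, 0.08). For S100a1 the call was lost without day 10 replicate 1 (1.4, 0.052) or 2 (1.46, 0.06), or day 20 replicate 2 (1.41, 0.07) or 3 (1.53, 0.064). Leaving out day 10 replicate 3 or day 30 replicate 2 gave 5 called genes, and 2 without replicate 2 of day 10 or replicate 2 or 3 of day 20.

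From day 20 to day 30 none of the 10 genes passed in limma, in a comparison where 0.154% of all genes did. Of the 10, 1 (Casq2) had an unadjusted limma p under 0.05, as did 2004 of all 18193 genes. Casq2 differed by 0.81 (interval 0.29 to 1.33, adjusted p = 0.29), and its 3 day 30 arrays lay above all 3 of day 20, as did those of 11.7% of all genes. The highest difference was that of Sln, 2.03 (-0.64 to 4.71, adjusted p = 0.67), and its arrays overlapped. Arrays of these 2 ages with replicate number 2 or 3 deviated together (correlations of 0.50 and 0.35). Day 20 replicate 1 correlated hardly more with its own number (0.19) than with day 30 replicate 3 (0.18). The pairing was taken from these same data, so values within number describe them only. Taken within number, Sln differed by 2.27, 2.48 and 1.35, all upward, and Casq2 by 0.92, 1.12 and 0.40. With the replicate number as a block in a limma fit of these ages, Sln had an interval of 1.44 to 2.63 (adjusted p = 0.055) and Casq2 one of 0.41 to 1.21 (adjusted p = 0.088). None of the 10 genes passed there either, where 0.353% of all probe sets did. In that fit 3 of the 10 had an unadjusted p under 0.05, and the share of all genes at that p was not taken. Without the block, intervals of the others reached from -0.95 to 1.44 for Pln, from -0.57 to 0.83 for Trdn and from -0.51 to 0.64 for Atp2a2.

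A direct test compared the later change with the earlier one in each gene. Only Casq2 passed among the 10, with a later change 4.54 below the earlier one, a difference of -4.54 (SE 0.39, interval -5.44 to -3.64, adjusted p = 0.015), where 0.231% of all genes passed. The call was lost without day 20 replicate 2 (-4.40, adjusted p = 0.13), day 20 replicate 3 (-4.35, 0.075) or day 30 replicate 1 (-4.43, 0.056). Without day 10 replicate 3, Pln passed as well (-2.98, adjusted p = 0.016, against -2.32 and 0.33 with all arrays), in a setting that called 6.45% of all probe sets, against 0.133% with all arrays. Trdn stood at -1.98 (adjusted p = 0.19) and S100a1 at -1.23 (0.37). The F test over all 3 ages passed for 5 genes, Casq2, Pln, Sln, Trdn and S100a1, where 15.4% of all genes passed, and for 3 without day 10 replicate 2.

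**Figure D3:**
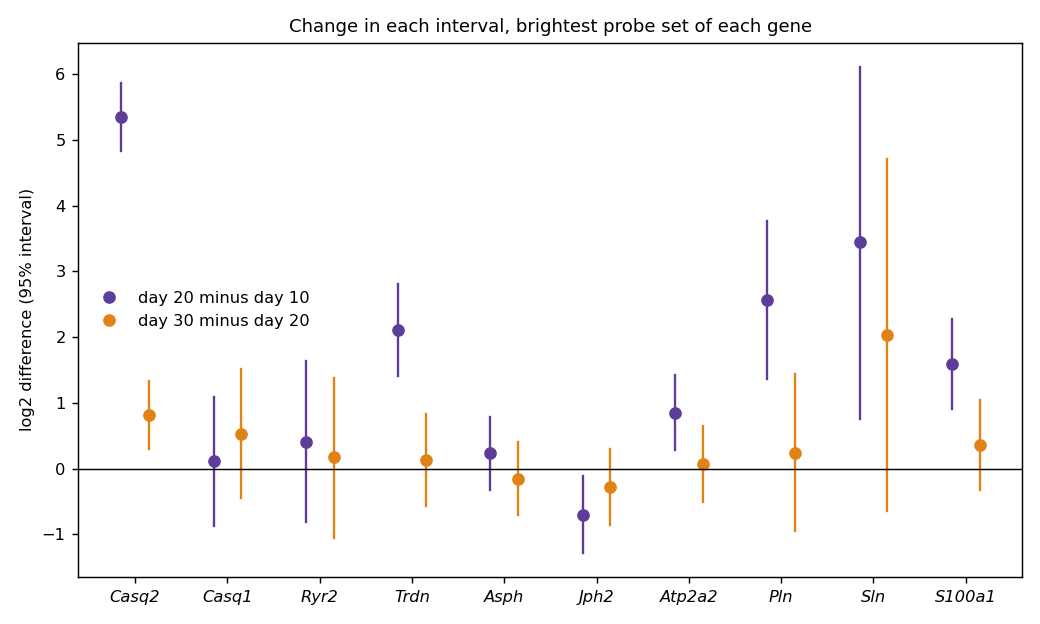
Log2 difference (vertical axis) of the brightest probe set of each gene from day 10 to day 20 and from day 20 to day 30, with 95% intervals. The Casq2 points, at 5.35 and 0.81, have intervals that do not meet. The Trdn intervals, 1.41 to 2.81 and -0.57 to 0.83, do not meet either, though Trdn did not pass the direct test of the later against the earlier change.

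Gene products that work together were compared within each array, where a shift common to both genes cancels if both signals are above background. Casq2 and Sln were not shown to be above background at day 10, so this limit applies to their pairs. The day 10 SD of Casq2 minus Ryr2 was 1.44, against 1.21 for Ryr2 alone and 0.24 for Casq2 alone. The difference of 2 log2 signals has no meaning as a ratio of amounts, because probe sets differ in response, but its change with age shows unequal change. The test was an exact two-sided permutation of the F statistic over the 3 ages, with p-values adjusted over 10 pairs and 0.00357 as the smallest p possible. Casq2 against Ryr2, store against channel, went from -3.05, -4.37 and -5.94 at day 10 to 0.45, 0.56 and 0.45 at day 20 and 0.63, 1.39 and 1.38 at day 30. All later arrays were above all day 10 arrays, and the mean gained 5.58 from day 10 to day 30 (exact p = 0.00357, adjusted p = 0.036). This call was lost without day 20 replicate 1 (adjusted exact p = 0.057) or 3 (0.071). S100a1 against Atp2a2 gained 1.03, from -3.43 ± 0.52 to -2.40 ± 0.10 (SD, n = 3, exact p = 0.00714, adjusted p = 0.036). That call held without day 20 replicate 2 and was lost without any 1 of the other 8 arrays, at 0.73 to 1.19 and adjusted exact p-values of 0.057 to 0.11.

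Another 5 pairs did not pass, each at an adjusted exact permutation p of 0.051. Inhibitor against pump, Pln minus Atp2a2 was -2.5, -3.1 and -1.29 at day 10, -0.37, -1.13 and -0.26 at day 20, and -0.05, -0.93 and -0.24 at day 30. The ages after day 10 were higher without overlap, and the gain was 1.89. Sln minus Atp2a2 gained 4.55, Casq2 minus Casq1 gained 5.53, and Trdn minus Ryr2 gained 1.65, while Jph2 minus Ryr2 was at -1.56. The gains with Sln and Casq2 start from day 10 signals not shown to be above background. Ryr2 minus Atp2a2, channel against pump, went from -2.51 ± 0.80 at day 10 to -2.85 ± 0.47 at day 30 (SD, n = 3, exact p = 0.714), and Asph minus Ryr2 (exact p = 0.60) and Sln minus Pln (exact p = 0.293) did not pass. The calls depended on the arrays. The number of pairs that passed was 5 without day 10 replicate 3, 4 without day 20 replicate 2 or day 30 replicate 3, 1 without replicate 1 or 2 of day 10 or of day 30, and 0 without day 20 replicate 1 or 3.

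**Figure D4:**
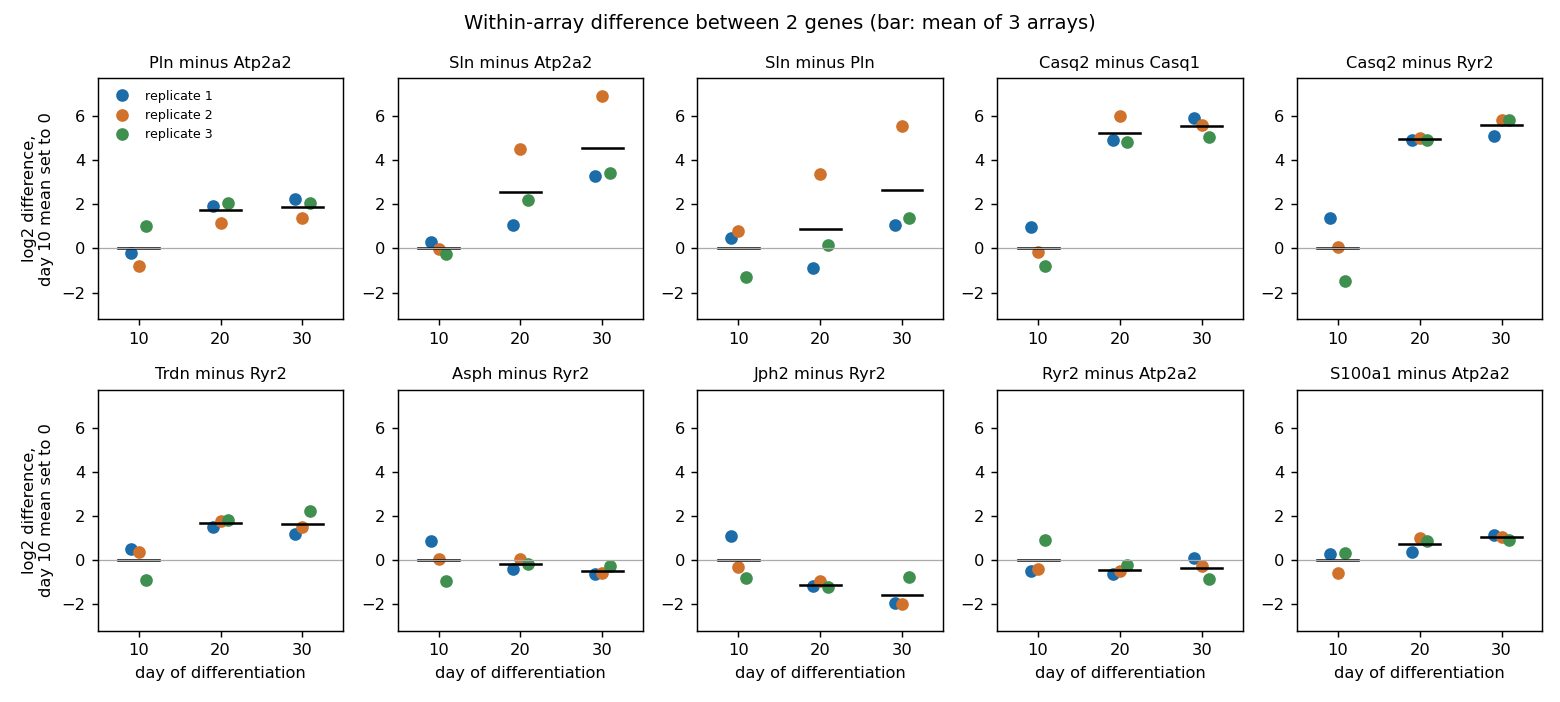
Within-array log2 difference between 2 genes (vertical axis, shifted so that the day 10 mean is 0) against day of differentiation for 10 pairs, with 1 point per array and a bar at the mean of 3. Casq2 minus Ryr2 sits between 0.45 and 1.39 before the shift on all later arrays, which vary little beside the day 10 arrays. On the day 10 arrays Casq2 was not shown to be above background.

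A wider list of genes around the store was examined as well: other channels, pumps, luminal and junction proteins, kinases and phosphatases. Of 57 genes listed, 51 were measured. Between day 10 and day 30, 8 rose and 4 fell (all genes: 10.3% and 8.91%), and the median was 0.05, against -0.03 for all genes and 1.43 for the 10 members. Without day 10 replicate 3 the number called was 16 of 51, where 20.3% of all probe sets were called. It was 8 without day 30 replicate 2 or without day 10 replicate 2, where 9.85% and 10.1% were called. With all arrays 7.4% of all probe sets rose and 7.73% fell. Dhrs7c, a dehydrogenase gene of the muscle reticulum, went from 4.64 ± 0.58 to 10.60 ± 0.10 (SD, n = 3), a rise of 5.96 with an SE of 0.30 (limma adjusted p = 4.5e-05). Its day 10 mean was under the median of all probe sets and was not shown to be above background, which holds for the next value too. Like Casq2, it passed the test of the later against the earlier change, at -5.22 (adjusted p = 0.023), as the single gene of this list to do so. Cmya5, whose product lies at the junctions that hold the release channel, rose by 2.82 (adjusted p = 0.0045). Cav3, the muscle caveolin, rose by 2.33 (0.012). Prkaca, a catalytic subunit of the kinase that phosphorylates phospholamban, rose by 0.98 (0.0035), and Clcc1 by 0.39 (0.011). Itpr2, Itpr3 and Pde4d rose too, by 1.10, 0.68 and 0.71.

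The 4 falls included Ppp1r1a, an inhibitor of the phosphatase that acts on phospholamban, which went from 9.29 ± 0.65 to 7.07 ± 0.27 (SD, n = 3), a difference of -2.22 with an SE of 0.30 (limma adjusted p = 0.0028). Sri, which encodes sorcin, a calcium sensor that binds the release channel, was at -0.64 (0.0026). Fkbp1a, a channel-binding immunophilin, was at -0.55 (0.013), and Jph3, the brain junctophilin, at -0.42 (0.032). The Jph3 means were dim, at 5.55, 5.20 and 5.13 at the 3 ages, and were not shown to be above background. The skeletal muscle counterparts of the channel and the pump did not pass: Ryr1 differed by 0.03 and Atp2a1 by -0.21, at dim day 30 levels of 4.22 and 5.52. Ryr3 (-0.20), Atp2a3 (-0.06), the cardiac channel partner Fkbp1b (-0.54), the luminal calcium binder Hrc (0.19) and sarcalumenin, Srl (1.41, interval 0.25 to 2.56, adjusted p = 0.10), did not pass either. Slc8a1, the exchanger whose promoter drove the selection, was at -1.13 (interval -2.01 to -0.25, adjusted p = 0.088). From day 10 to day 20, Dhrs7c, Cmya5, Cav3, Prkaca and Clcc1 rose and Fkbp1a fell (all genes: 6.31% rose, 5.3% fell). From day 20 to day 30 none of the 51 passed in limma (all genes: 0.154%). An unadjusted limma p under 0.05 was held by 5 of them, and by 2004 of all 18193 genes.

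**Figure D5:**
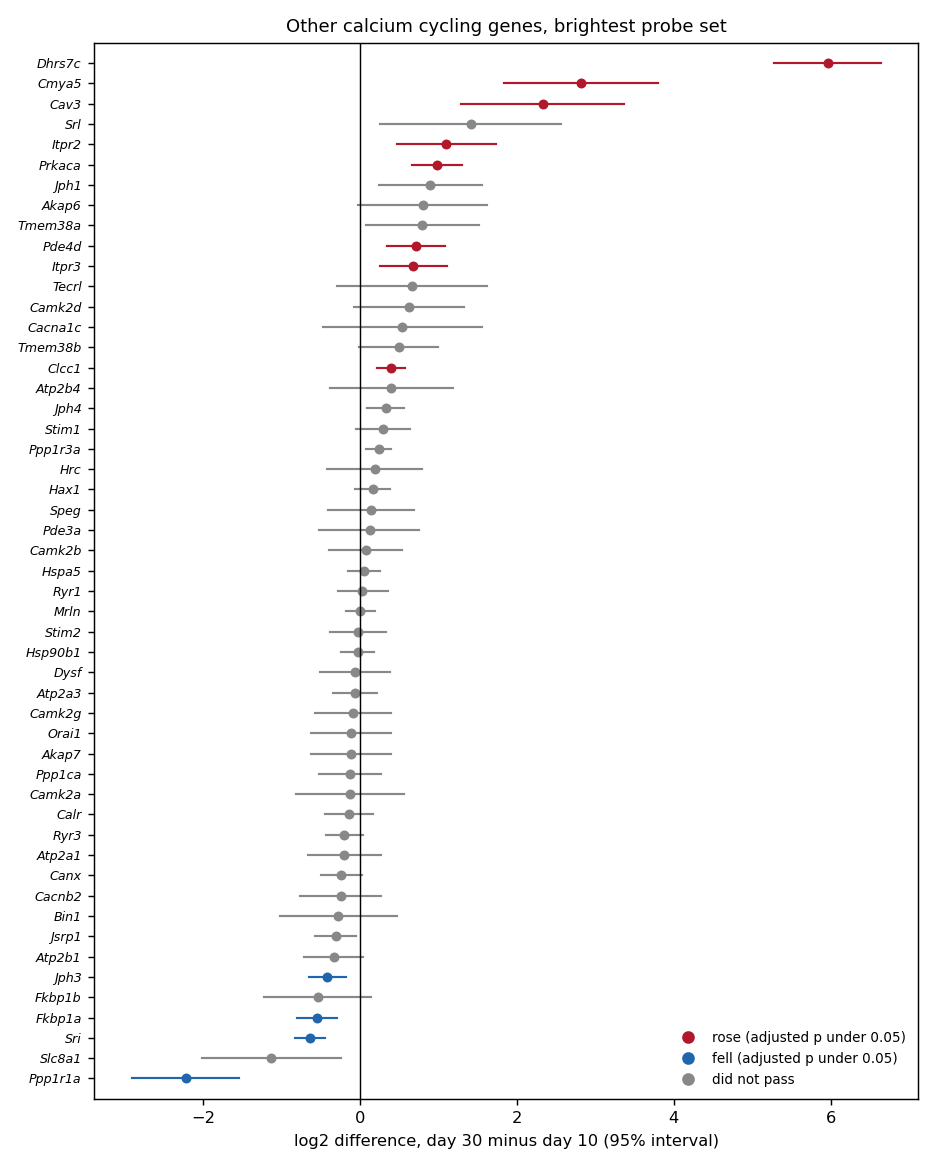
Log2 difference between day 30 and day 10 (horizontal axis) with its 95% interval for the 51 other measured genes, ordered by size, with colours for calls at an adjusted p under 0.05. Dhrs7c, at 5.96, lies far to the right of the rest, and most intervals cross 0.

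Markers of cell types were read on the same arrays. None of 11 cardiomyocyte markers passed between day 10 and day 30 in limma, and their median was 0.16. None had an unadjusted limma p under 0.05, where 6252 of all 18193 genes did. Among all genes 10.3% rose and 8.91% fell in this comparison. Tnnt2, cardiac troponin T, was at 13.42 ± 0.03 and 13.54 ± 0.05, Actn2 at 12.04 ± 0.79 and 12.43 ± 0.05, and Myh6 at 13.09 ± 0.41 and 13.50 ± 0.06 (SD, n = 3), so that these markers were bright at each age. The summed linear signal of these markers ran from 72800 to 101000 at day 10, with replicate 3 highest, from 79200 to 103000 at day 20, and from 102000 to 103000 at day 30. Fibroblast and matrix markers moved with the ages: 9 of 12 rose and none fell, and their summed linear signal was 4460 to 10900, 31800 to 60900 and 70600 to 85500 at the 3 ages. Col1a1, a collagen chain gene, rose by 6.28, and Dcn, decorin, by 6.73. The part of these cells in the rise of the members was not tested.

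Of 16 skeletal muscle markers, 1 rose (Ckm, muscle creatine kinase, also used by heart, at 6.05 from a dim 5.34 ± 0.02 at day 10, SD, n = 3) and 1 fell (Mylpf, at -1.08). Their summed linear signal was 3020 to 5370, 2610 to 5840 and 4380 to 5030 at the 3 ages. That sum mostly follows Acta1, at means of 11.68, 10.41 and 10.53, and Ckm, at 5.34, 10.78 and 11.40. It says little of the other markers. The defining regulator Myog was at 4.78 ± 0.15, 4.8 ± 0.08 and 4.67 ± 0.03 and Myod1 at 5.10 ± 0.07, 4.92 ± 0.13 and 4.94 ± 0.13 (SD, n = 3), all under the median of all probe sets. Of 8 smooth muscle markers 2 rose and 3 fell, with sums of 20900 to 26900, 14500 to 21000 and 8310 to 16200. Of 8 endothelial markers 1 fell, with sums of 233 to 599, 209 to 234 and 192 to 292, and Pecam1 was at 4.41 ± 0.18 at day 30 (SD, n = 3). The 5 cell cycle genes had a median difference of -2. None of them passed in limma, though all 5 had an unadjusted p under 0.05, as did 6252 of all 18193 genes. The sums of these 5 were 1910 to 8450, 1180 to 4180 and 709 to 1760. The part of these lists in the results above was not tested.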

How the data were processed

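Total RNA of 9 samples was labelled with biotin by a 3 prime IVT kit, per the labels' protocols, and measured on 1-colour expression arrays. The authors deposited a log2 signal for each probe set on each array, and these values were used. The normalization is not given in the sources used here, and the base of the logarithm was inferred from the range, 2.77 to 14.52. Array medians lay between 5.48 and 5.56, so the values were used as deposited. Of 45101 probe sets, 64 array controls were left out. Of the rest, 34945 had 1 symbol in the platform annotation, 932 several and 9160 none, and only those with 1 were named. A build behind the array annotation is not given in the sources used here, so the only coordinates printed are those of RefSeq promoter windows on GRCm38.p6, matched by symbol.

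A mean per age was fitted to all 9 arrays and 45037 probe sets by lmFit and eBayes of limma 3.58.1 (R 4.3.3). Residual degrees of freedom were 6 and prior ones 2.19, with two-sided tests and Benjamini-Hochberg adjustment over all probe sets. All probe sets were fitted so that each could be reported, and a gene is represented by its brightest. The labels do not say that a replicate number marks a shared culture or day. Deviations of same-numbered arrays from their group means correlated at 0.19, 0.50 and 0.35 between day 20 and day 30, which were taken as paired, and at -0.22 to 0.15 between day 10 and either, which were not. Gene pairs were tested by exact permutation over 280 splits. The members, lists, pairs and tests were chosen with earlier results of these data known. From the wider list, up to 5 genes that rose and up to 5 that fell, those with the lowest adjusted p, are named, and Ryr1, Ryr3, Atp2a1, Atp2a3, Fkbp1b, Hrc, Srl and Slc8a1 always. Of the markers, Tnnt2, Actn2, Myh6, Col1a1, Dcn, Myog and Pecam1 are always named. Itpr2, Itpr3, Pde4d, Acta1, Ckm, Mylpf and Myod1 were named after their values were seen. Alternatives were other normalizations, units, filters, variance models, array weights, the replicate number as a block, and leaving out each array.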

Additional observations from a re-analysis of the deposited data

Results flagged for a closer look

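The change of Casq2 differed between the 2 intervals by a test of the difference itself: the later change minus the earlier change was -4.54 (limma adjusted p = 0.015). The signal rose by 5.35 from day 10 to day 20 (limma adjusted p = 0.00013). From day 20 to day 30 it differed by 0.81, which did not pass (adjusted p = 0.29). All 3 arrays of the later age lay above all 3 of the earlier in both cases, as in 14.5% and 11.7% of all genes. The difference between the intervals lost its call without day 20 replicate 2 (adjusted p = 0.13), day 20 replicate 3 (0.075) or day 30 replicate 1 (0.056).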

How the results depend on the processing

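The count of members called between day 10 and day 30 was 7 with quantile normalization, arrays centred on their medians, 1 probe set per gene, the mean of the probe sets, probe sets above the median only, eBayes with trend and robust, and the replicate block. It was 6 with array weights and 5 when only the days compared were fitted. The 7 called with the mean of the probe sets included Asph, which did not pass by its brightest probe set. An equal count therefore does not mean that the same genes were called. Left-out arrays gave 5 to 7 members for that contrast, 2 to 5 between day 10 and day 20, 0 to 2 between the intervals, 3 to 5 over any days, and 8 to 16 genes of the wider list. The last was 21 with array weights, which also called 3 members between the intervals, but which called 25.5% and 6.17% of all probe sets in these comparisons. Only the days compared left 2 members called between day 10 and day 20. Pairs that passed numbered 6 with the mean of the probe sets and 0 to 5 with an array left out, and pairs of probe sets of 1 gene numbered 0 to 4 (added after the data were seen).

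Between day 10 and the later ages the arrays share only a number, with correlations of -0.22 to 0.15 among same-numbered arrays. Each day 20 array correlated best with its own number at day 30, a hint from the data and not from the design. For replicate 1 this was 0.19, against 0.18 with day 30 replicate 3. In a fit of these ages alone with the replicate number as a block, added after the data were seen, 0 members were called. With all ages and the replicate number as a block, 7 members were called between day 10 and day 30, 6 between day 10 and day 20, where Sln and Atp2a2 were gained (adjusted p = 0.034 and 0.048), and 0 between day 20 and day 30.

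Signs turned only in values that had not passed, apart from Atp2a2 between day 10 and day 30, which was -0.63 on probe set 1427250_at. That probe set gave -0.46 from day 10 to day 20, -0.16 from day 20 to day 30 and 0.30 between the intervals. From day 20 to day 30 Atp2a2 was -0.06 with the mean of its probe sets, -0.11 on 1437797_at and -0.27 on 1443551_at. Asph on 1436455_at was -0.05 from day 10 to day 30, -0.36 and 0.31 in the earlier and later interval, and 0.68 between intervals. From day 20 to day 30 it was 0.29 with the mean of its probe sets, 0.31 on 1420959_at, 0.40 on 1425274_at and 0.92 on 1425275_at, and between intervals 0.37 on 1425275_at. Between intervals Ryr2 was 0.05 over both its probe sets averaged and 0.34 on 1421126_at, which gave 0.00 from day 10 to day 20, and Sln was 0.24 on 1420883_at. The pair Sln minus Pln was -0.06 and Asph minus Ryr2 0.33 with the mean of the probe sets. The cause of these turns was not tested.

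Ranges over left-out arrays that crossed 0 were, between day 10 and day 30, 0.00 to 1.2 for Ryr2 and -0.06 to 0.23 for Asph. Between day 10 and day 20 they were -0.26 to 0.41 for Casq1 and -0.17 to 1.04 for Ryr2. From day 20 to day 30 Trdn ran from -0.11 to 0.30, and between the intervals Ryr2 ran from -0.87 to 0.34, Casq1 from -0.18 to 1.02 and Sln from -3.04 to 0.64. The pair Ryr2 minus Atp2a2 ran from -0.59 to 0.12.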
